A study of Homo sapiens with 6 samples.

Results

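The 10 genes described here are the NRF2 gene NFE2L2, its relative NFE2L1, the regulators KEAP1, BACH1, MAFG and MAFF, and the NRF2 targets NQO1, SRXN1, OSGIN1 and TXNRD1. They were taken by symbol, as a list of NRF2 regulators and classical targets, from the 25071 genes of a count table. All 10 were among the 15816 genes that passed the filter on low counts. Their RNA was sequenced in 6 libraries from the established human hepatoma cell line PLC/PRF/5. Cells of 3 libraries had received a control vector and cells of the other 3 a plasmid that expresses ARD1, and both groups were harvested 48 hours after transfection. ARD1, listed in the table as NAA10, is the enzyme of NatA that acetylates protein N-termini. By its title the study concerns ARD1, glutathione synthesis and escape from ferroptosis, in which peroxidised lipids kill the cell, so the comparison asks which transcripts of this antioxidant pathway differed after ARD1 was expressed. The labels do not say whether both groups came from the same culture, so culture and plasmid cannot be told apart. They also do not give the share of cells that took up a plasmid, nor whether each library had its own culture dish. The p-values below therefore reflect only how far these libraries spread, which may be technical.

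NRF2 is a basic leucine zipper transcription factor that is made continuously and destroyed continuously: the adaptor KEAP1 hands it to a CUL3 ubiquitin ligase, and oxidants or electrophiles that modify KEAP1 let NRF2 accumulate. NRF2 then pairs with a small MAF protein, such as MAFG or MAFF, and binds antioxidant response elements beside genes of quinone reduction, thioredoxin and glutathione metabolism, NADPH supply and drug conjugation. BACH1 pairs with the same small MAFs and represses many of the same elements. Much of this control acts on protein, which RNA counts do not measure.

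The libraries held 21857327 to 25011357 counts. NAA10 was at 35.5, 32.1 and 36.2 CPM (counts per 1000000 library counts, TMM-normalised) in the control libraries and at 355, 400 and 294 CPM in the ARD1 libraries, 10.1-fold higher. Counts there do not separate plasmid from chromosomal transcripts. The first control replicate was unlike the others: its chi-square per degree of freedom was 17.4 and 20.2 against them, and 2.51 to 4.35 for all remaining pairs within a group. Among hepatocyte and hepatoma markers, ALB, TF, FGB, KRT8, KRT18, HNF4A, APOB and SERPINA1 were counted in every library. AFP reached at most 3.90 CPM, and APOA1 and GPC3 stayed under the filter. In the ARD1 libraries 6 of the 9 tested markers were lower and 3 higher. Lower were TF (log2 fold change -3.22), ALB (-3.12), AFP (-2.42), KRT18 (-1.09), FGB (-0.96) and KRT8 (-0.63). ALB was at 308 to 321 CPM in control and 33.7 to 40.7 CPM in ARD1 libraries. Higher were APOB (0.33), HNF4A (0.25) and SERPINA1. SERPINA1 was at 0.359 to 0.818 CPM in control and 1.57 to 2.54 CPM in ARD1 libraries. The summed level of 6 endothelial markers was 69.9 to 82.7 CPM in control and 90.1 to 103 CPM in ARD1 libraries, that of 7 fibroblast and stellate markers 78.0 to 98.7 and 18.2 to 20.6 CPM, and that of 6 immune markers 15.3 to 16.6 and 8.57 to 9.51 CPM. Of 4 tested endothelial markers 3 were higher, PECAM1 (log2 fold change 0.82), KDR (2.05) and VWF (5.29), and 1 was lower, CDH5, at 30.5 to 35.3 CPM in control and at most 0.161 CPM in ARD1 libraries. Of 5 tested fibroblast and stellate markers 1 was higher, COL1A1 (1.55), and 2 were lower, COL3A1 (-4.80) and LUM (-2.01). Of 3 tested immune markers 1 was higher, NKG7 (1.57), and 2 were lower, PTPRC (-4.91) and ITGAM (-1.20). None of these markers was at 0 in every library, although GPC3 was at 0 in every control library, and the part of these shifts in the values below was not tested.

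Of the 10 genes, 7 rose, 2 fell and 1 did not pass the test in the ARD1 libraries (edgeR's quasi-likelihood test, Benjamini-Hochberg adjusted p under 0.05 over all genes tested). The activators NFE2L2 and NFE2L1, the repressor BACH1, the small MAFs MAFG and MAFF, and the targets SRXN1 and TXNRD1 rose. The targets NQO1 and OSGIN1 fell, and the inhibitor KEAP1 did not pass. The same test called 64.6% of all genes tested, 32.4% as higher and 32.2% as lower. A call alone therefore does not set these genes apart. By the stricter rule of a called change of at least 1 on the log2 scale, 3 of the 10 were higher, NFE2L2, NFE2L1 and SRXN1, and NQO1 was lower. That rule called 21.5% of all genes tested, 9.71% as higher and 11.8% as lower. The control and ARD1 libraries did not overlap in CPM for any of the 10, of which 7 were higher and 3 lower in ARD1 libraries. Among all genes tested 69.6% did not overlap, 35.6% being higher and 34% lower. The median log2 fold change was 0.45 over the 10 genes and 0.03 over all genes tested. In bulk RNA, fewer cells of a kind and less RNA per cell cannot be told apart.

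Antioxidant response elements can be looked for in the promoter sequence, here in windows from 250 bases before to 50 bases after each annotated start, taken from RefSeq (GRCh38.p14), which matched all 10 genes with 17 windows. The core searched was TGACNNNGC, on both strands, where N is any base. It occurred in 3 of the 10 genes, TXNRD1, KEAP1 and MAFF, and in 16.1% of all 27305 genes with a window. Each match is shown with 12 bases on either side, with the core in capitals, because these are the only cores in the windows of the 10 genes.
TXNRD1, chr12:104215668-104215700, plus strand: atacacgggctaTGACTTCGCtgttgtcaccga
TXNRD1, chr12:104215759-104215791, minus strand: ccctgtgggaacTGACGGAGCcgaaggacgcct
TXNRD1, chr12:104286918-104286950, minus strand: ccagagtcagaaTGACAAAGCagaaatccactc
KEAP1, chr19:10502805-10502837, minus strand: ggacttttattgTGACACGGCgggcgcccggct
KEAP1, chr19:10502782-10502814, plus strand: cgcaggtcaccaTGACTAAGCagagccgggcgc
MAFF, chr22:38201860-38201892, minus strand: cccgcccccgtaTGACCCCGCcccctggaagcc
The TXNRD1 matches lie in the windows of separate start sites, 99 and 8 bases before the first and 102 bases before the second, measured to the base of the match farthest upstream. The KEAP1 matches begin 54 and 31 bases before a KEAP1 start, and the MAFF match 122 bases before a MAFF start. With only the 150 bases of each window from 100 before to 50 after the start, 2 of the 10 genes held a core, as did 9.55% of all genes.

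The AP-1 site TGACTCA, which is also the start of a core where GC follows it, was found in 2 of the 10 genes and in 6.05% of all genes. It is shown because neither gene has the core above.
OSGIN1, chr16:83953131-83953161, plus strand: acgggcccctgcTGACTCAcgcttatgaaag
BACH1, chr21:29298862-29298892, minus strand: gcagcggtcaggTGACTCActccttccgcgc
The 2 genes that hold it moved apart, BACH1 being higher and OSGIN1 lower. The C/EBP-ATF site TGATGNAA, which cannot match the core at the same start, was found in none of the 10 and in 4.46% of all genes. Over all 11531 tested genes with a window, the median log2 fold change was 0.01 for the 2244 genes with the core and 0.03 for the rest, with 32.2% against 33.5% called higher and 34.2% against 33.0% called lower. A match is a description of letters and shows no binding.

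The targets SRXN1 and NQO1, which moved most and in opposite directions, held none of the 3 motifs in their windows. The 150 bases just before their start sites are shown for comparison.
NQO1, chr16:69726561-69726710, minus strand: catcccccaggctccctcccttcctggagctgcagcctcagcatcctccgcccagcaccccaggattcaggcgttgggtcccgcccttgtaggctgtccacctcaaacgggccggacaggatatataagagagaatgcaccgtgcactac
SRXN1, chr20:653201-653350, minus strand: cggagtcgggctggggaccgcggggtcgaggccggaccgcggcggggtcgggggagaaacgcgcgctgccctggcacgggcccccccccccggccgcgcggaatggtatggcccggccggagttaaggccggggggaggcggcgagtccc
The SRXN1 stretch had 80.7% G and C bases and 23 CG pairs, and the NQO1 stretch 62.0% and 6. These letters say nothing on elements farther away.

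NFE2L2 (ENSG00000116044, chr2:177227595-177392697, minus strand; GRCh38, GENCODE 29, as for all coordinates below) had the second largest rise of the 10. Its level was 64.1, 85.8 and 97.2 CPM in control replicates 1, 2 and 3 and 319, 266 and 302 CPM in the ARD1 libraries. All ARD1 libraries were well above all controls, and control replicate 1 was the lowest of the 6. The rise was 3.59-fold (log2 fold change 1.84, SE 0.121, adjusted p = 6.40e-09, edgeR), and 2.95% of all genes tested had a higher log2 fold change. Without control replicate 1 the log2 fold change was 1.68. Exons of AC019080.1, an annotated transcript on the same strand, cover 17.6% of NFE2L2 exon bases, and its own counts were 155, 181 and 122 in control and 184, 150 and 155 in ARD1 libraries, with the groups overlapping.

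NFE2L1 (ENSG00000082641, chr17:48048329-48061487, plus strand) encodes an endoplasmic reticulum-anchored relative of NRF2, best known for raising proteasome genes when proteasomes are impaired. It was at 313, 277 and 262 CPM in control and at 596, 585 and 570 CPM in ARD1 libraries. Every ARD1 library was above every control, with control replicate 1 the highest of the controls, the reverse of its place for NFE2L2. The rise was 2.05-fold (log2 fold change 1.04, SE 0.0756, adjusted p = 1.96e-08, edgeR). Within a library, the count of NFE2L2 was 0.205, 0.310 and 0.372 of that of NFE2L1 in control and 0.536, 0.454 and 0.531 in ARD1 libraries. Such a ratio needs no library scaling. Its log2 value was higher by 0.82 in ARD1 libraries (two-sided exact permutation test, p = 0.10, the smallest that 3 against 3 libraries can give).

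KEAP1 (ENSG00000079999, chr19:10486120-10503741, minus strand), the substrate adaptor that captures NRF2, did not pass the test. Its raw counts were 299, 294 and 288 in control and 295, 300 and 278 in ARD1 libraries. Scaled to CPM they were 13.6, 14.0 and 12.9 against 12.3, 11.2 and 11.2, with every ARD1 library below every control by a narrow margin. The log2 fold change was -0.22 (SE 0.105, adjusted p = 0.0800, edgeR), and its sign depended on the scaling, at 0.045 when scaled by library totals alone (adjusted p = 0.710) and at 0.17 once GC and length trends were taken out (adjusted p = 0.140). The adjusted p was 0.0546 to 0.710 over its 18 alternatives. A missed threshold does not show that KEAP1 was equal in both groups.

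The count of NFE2L2 relative to KEAP1, which no library scaling affects, did not overlap between the groups. There were 4.72, 6.15 and 7.53 NFE2L2 counts per KEAP1 count in control libraries and 25.9, 23.65 and 27.0 in ARD1 libraries. The log2 ratio was 2.59 ± 0.34 (SD, n = 3) in control and 4.67 ± 0.10 in ARD1 libraries, a difference of 2.08 or 4.23-fold (exact permutation test, p = 0.10). Leaving out any single library gave 1.91 to 2.24, and removing GC and length trends gave 1.70.

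BACH1 (ENSG00000156273, chr21:29194071-29630751, plus strand), the repressor that heme inactivates, rose by less. It was at 46.0, 56.2 and 54.2 CPM in control and at 67.2, 68.5 and 68.6 CPM in ARD1 libraries. The ARD1 libraries lay close together and above the controls, of which replicate 1 was lowest. The rise was 1.31-fold (log2 fold change 0.39, SE 0.0836, adjusted p = 0.000923, edgeR). Scaling by library totals alone made it 0.65 (adjusted p = 5.60e-05), and taking out GC and length trends made it 0.14 (adjusted p = 0.0269). Its alternatives spanned adjusted p-values of 3.33e-05 to 0.0361. Its longest transcript has 38.6% G and C bases, the lowest of the 10. Per count of NFE2L2 there were 0.718, 0.655 and 0.557 counts of BACH1 in control and 0.210, 0.258 and 0.227 in ARD1 libraries, so the repressor's transcript was lower relative to the activator's. The log2 ratio differed by -1.47 (exact permutation test, p = 0.10).

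The small MAFs, which lack an activation domain of their own and form pairs with NRF2 or BACH1, both rose. MAFG (ENSG00000197063, chr17:81918270-81927714, minus strand) was at 188, 182 and 170 CPM in control and at 262, 248 and 258 CPM when ARD1 was expressed (log2 fold change 0.51, SE 0.0680, adjusted p = 1.22e-05, edgeR). MAFF (ENSG00000185022, chr22:38200767-38216511, plus strand) was at 21.7, 16.8 and 19.0 CPM and at 35.5, 34.6 and 32.6 CPM (log2 fold change 0.84, SE 0.102, adjusted p = 4.54e-06, edgeR). For both genes the lowest ARD1 library was above the highest control. Taking out GC and length trends made the log2 fold changes 0.74 and 1.26, and scaling by library totals alone made them 0.77 and 1.10. MAFF counts were 0.115, 0.0920 and 0.112 of MAFG counts in control and 0.135, 0.140 and 0.127 in ARD1 libraries, so MAFG remained by far the more counted in every library. The log2 ratio was higher by 0.34 in ARD1 libraries (exact permutation test, p = 0.10), and by 0.53 with GC and length trends removed.

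**Figure D1:**
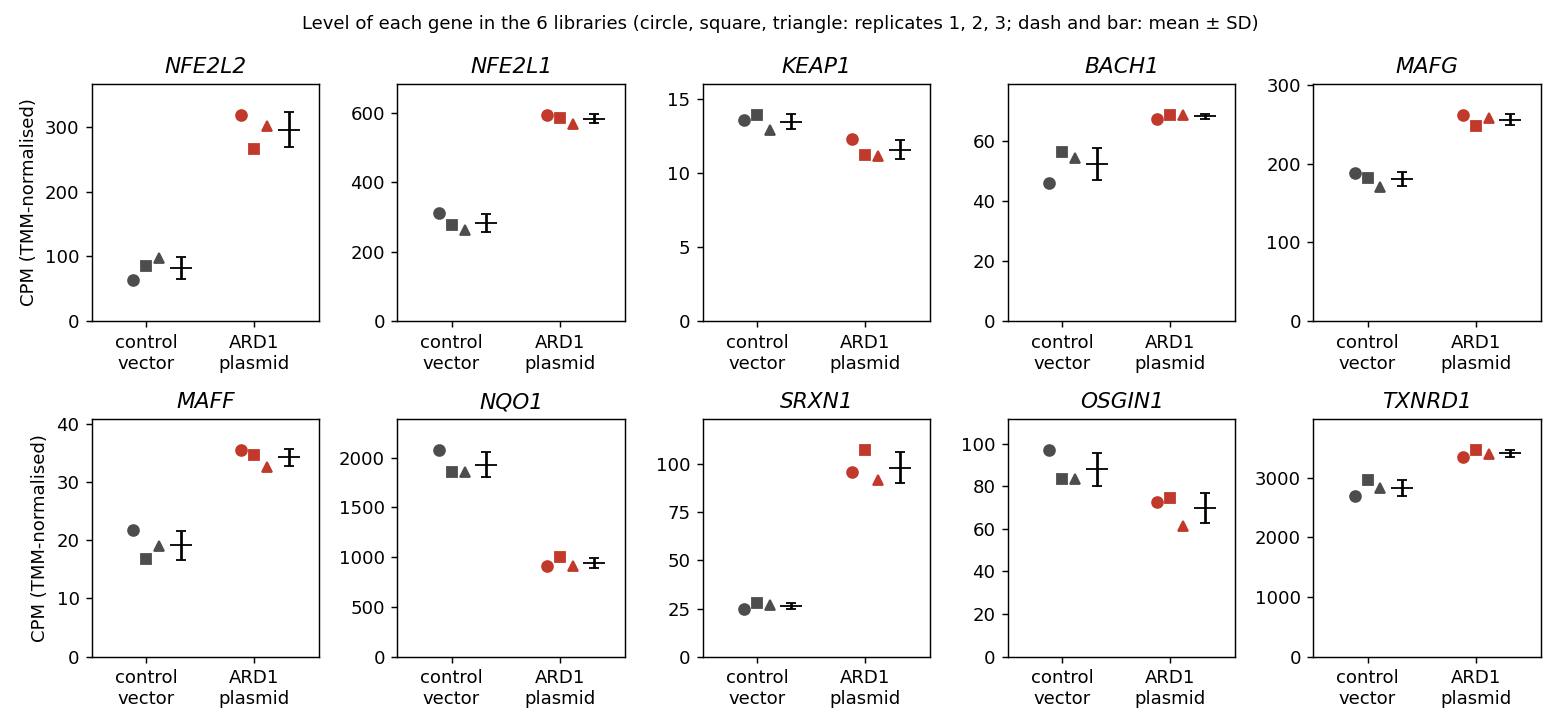
TMM-normalised CPM of each gene on the y axis (linear, from 0) in the 3 control vector and 3 ARD1 plasmid libraries on the x axis, with a dash and bar for the mean ± SD (n = 3). The groups do not overlap for any gene: NFE2L2 lies at 64.1 to 97.2 CPM in control and 266 to 319 CPM in ARD1 libraries, while NQO1 goes the other way, from at least 1851 to at most 1002 CPM.

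The 4 targets split evenly by direction. SRXN1 (ENSG00000271303, chr20:646615-653370, minus strand), which encodes sulfiredoxin, the enzyme that repairs overoxidised peroxiredoxins, had the largest rise of the 10. It was at 24.7, 27.9 and 26.9 CPM in control and at 95.9, 107 and 91.7 CPM in ARD1 libraries. Each ARD1 library was more than 3 times every control (log2 fold change 1.89, SE 0.0864, 3.71-fold, adjusted p = 1.15e-10, edgeR), and 2.79% of all genes tested had a higher log2 fold change. An annotated protein-coding transcript, AL121758.1, shares 85.0% of SRXN1 exon bases on the same strand, with 14 counts over the 6 libraries against 9171 for SRXN1, so the split between them is uncertain.

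NQO1 (ENSG00000181019, chr16:69706996-69726951, minus strand), the quinone reductase often used as the readout of NRF2 activity, fell. It was at 2077, 1859 and 1851 CPM in control and at 915, 1002 and 914 CPM in ARD1 libraries. The highest ARD1 library was well below the lowest control, and control replicate 1 was the highest of all. The fall was 2.04-fold (log2 fold change -1.03, SE 0.0738, adjusted p = 1.63e-08, edgeR), and 11.4% of all genes tested had a lower log2 fold change. It was -0.77 with library totals alone and -1.03 with GC and length trends removed. An antisense transcript lies opposite 17.7% of NQO1 exon bases and has no row in the table.

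TXNRD1 (ENSG00000198431, chr12:104215779-104350305, plus strand), the cytosolic thioredoxin reductase, rose by little from a high level. It was at 2696, 2969 and 2829 CPM in control and at 3355, 3465 and 3402 CPM in ARD1 libraries. The 3 ARD1 libraries were above the controls by more than the spread of either group (log2 fold change 0.27, SE 0.0680, adjusted p = 0.00305, edgeR). Scaled by library totals alone it was 0.53 (adjusted p = 1.63e-05). Its alternatives spanned adjusted p-values of 8.59e-06 to 0.0196.

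OSGIN1 (ENSG00000140961, chr16:83948282-83966332, plus strand), an oxidative stress-induced growth inhibitor, was lower, and its call depended on the processing. It was at 97.0, 83.3 and 83.3 CPM in control and at 72.7, 74.5 and 61.5 CPM in ARD1 libraries, groups that lay close to each other without overlap. The log2 fold change was -0.34 (SE 0.0899, adjusted p = 0.00424, edgeR). Scaled by library totals alone it did not pass (-0.071, adjusted p = 0.460), and taking out GC and length trends turned its sign (0.14, adjusted p = 0.0516). Its alternatives spanned adjusted p-values of 0.000245 to 0.460. Its longest transcript has 63.4% G and C bases, the highest of the 10, and a same-strand annotated gene with no row in the table covers 13.9% of its exon bases.

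Ratios between the targets, which also need no library scaling, were read within each library. NQO1 had 0.770, 0.626 and 0.654 counts per count of TXNRD1 in control and 0.273, 0.289 and 0.269 in ARD1 libraries, a log2 difference of -1.30 (exact permutation test, p = 0.10). Of the ratios chosen after their values were seen, and so given without a test, SRXN1 had 0.0119, 0.0150 and 0.0145 counts per count of NQO1 in control and 0.105, 0.107 and 0.1004 in ARD1 libraries. NQO1 had 32.4, 21.7 and 19.0 counts per count of NFE2L2 in control and 2.87, 3.77 and 3.02 in ARD1 libraries. In both cases the groups did not overlap, and the ratio of NQO1 to NFE2L2 was 7.42-fold lower in ARD1 libraries. Each of the 5 ratios tested gave an exact permutation p = 0.10, also after Benjamini-Hochberg adjustment, and this design cannot give less. The share of other gene pairs whose ratios separate the groups was not computed, and 69.6% of single genes tested did not overlap in CPM.

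**Figure D2:**
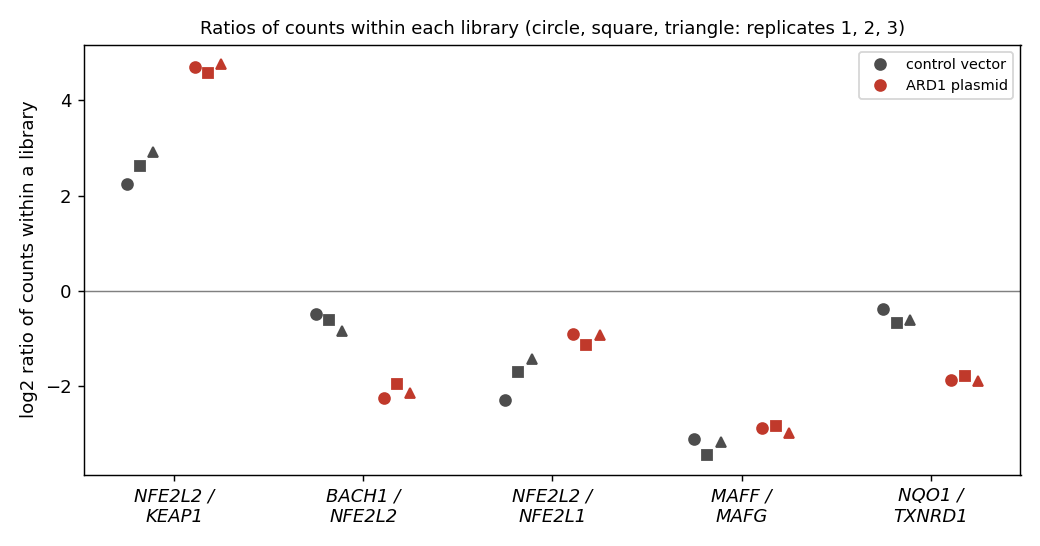
Log2 ratio of raw counts within each library on the y axis for the 5 pairs of genes on the x axis, in 3 control vector (grey) and 3 ARD1 plasmid (red) libraries. The NFE2L2 to KEAP1 ratio is 2.59 in control and 4.67 in ARD1 libraries on average. The groups do not overlap for any of the 5 pairs, and the share of other gene pairs that separate was not computed.

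Across the 10 genes, control replicate 1 was the lowest control for NFE2L2, BACH1, SRXN1 and TXNRD1 and the highest for NFE2L1, MAFG, MAFF, NQO1 and OSGIN1. Without that library 7 of the 10 genes were still called higher and 2 lower. When scaled by library totals alone, the median log2 fold change of all genes was 0.30 in place of 0.03, 68.5% of called genes were higher in place of 50.2%, and 1 of the 10 genes was lower, NQO1. With GC and length trends removed, NQO1 was again the only one of the 10 called lower. The direction and call of NFE2L2, NFE2L1, BACH1, MAFG, MAFF, SRXN1, TXNRD1 and NQO1 were the same in every alternative fit that included them.

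**Figure D3:**
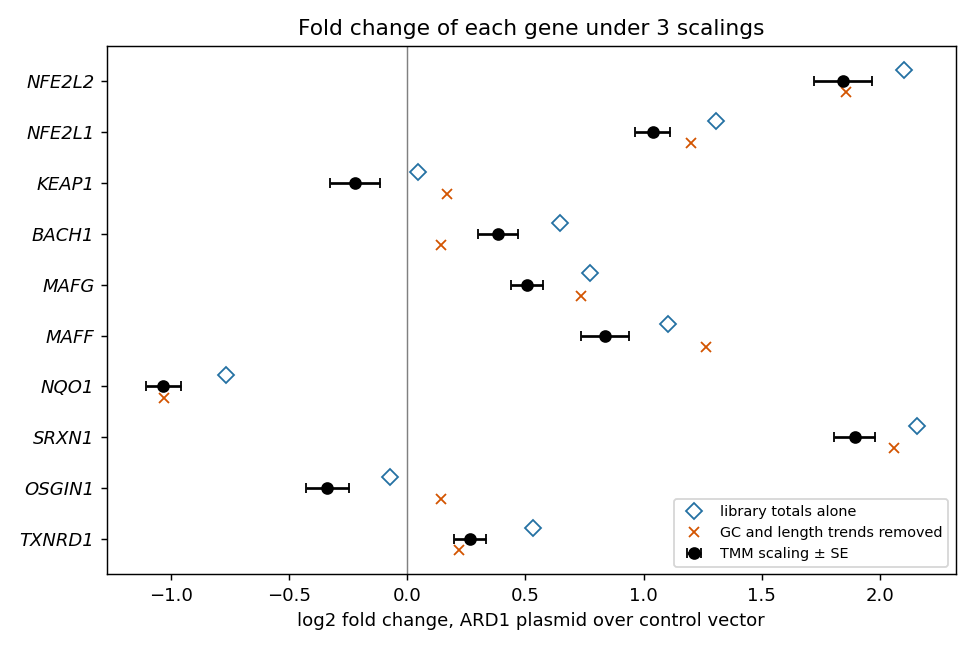
Log2 fold change, ARD1 plasmid over control vector, on the x axis for each of the 10 genes on the y axis, with TMM scaling (dot, bar is the SE), library totals alone (diamond) and GC and length trends removed (cross). KEAP1 lies on both sides of 0 (-0.22, 0.045 and 0.17), as does OSGIN1 (-0.34, -0.071 and 0.14), while the other 8 keep their side.

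Divided by exon length, the transcript levels of the 10 genes spanned a wide range. In control libraries NQO1 was highest at 593 ± 39.4 CPM per kilobase (SD, n = 3), followed by TXNRD1 at 422 ± 20.3, NFE2L1 at 48.8 ± 4.54, MAFG at 34.5 ± 1.74 and OSGIN1 at 25.4 ± 2.28. NFE2L2 (13.8 ± 2.81), SRXN1 (9.82 ± 0.596) and BACH1 (6.76 ± 0.698) were lower, and KEAP1 (3.59 ± 0.140) and MAFF (3.41 ± 0.443) were lowest, with a difference smaller than the SD of MAFF. In ARD1 libraries TXNRD1 (508 ± 8.22) was above NQO1 (290 ± 15.5), NFE2L1 reached 100.1 ± 2.23, and NFE2L2 (49.5 ± 4.57) and MAFG (49.0 ± 1.38) differed by less than either SD. SRXN1 (36.5 ± 3.02) was above OSGIN1 (20.1 ± 2.03), which it had been below in control libraries, followed by BACH1 (8.83 ± 0.103), MAFF (6.10 ± 0.261) and KEAP1 (3.08 ± 0.172). Exon length here is the union of all annotated exons, so a gene with many alternative exons is understated.

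By Pearson correlation of log2 CPM over the 6 libraries, the genes most like NFE2L2 were SERP1 (0.9999), IQCB1 (0.9996), ZNF81 (0.9995), NNT-AS1 (0.9995) and ZNF441 (0.9994), each lowest in control replicate 1. Of 13749 genes ranked, 2049 had a correlation above 0.95, since the points fall into 2 groups of 3 libraries that set most of it.

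The wider pathway was read from 11 lists of its factors and targets, some of which include the genes described above. Each count below stands against all genes tested, of which 32.4% were called higher and 32.2% lower, with a median of 0.03. Counts near those shares say nothing particular of a list. In the family of NRF2-related activators, BACH repressors and small MAFs, 7 of 8 tested genes rose and 0 fell, with a median log2 fold change of 0.67. With the genes described above left out, 2 of 3 tested genes rose and 0 fell (median 0.48). Besides the genes above, BACH2, a repressor best known in lymphocytes, rose from 1.32 ± 0.285 to 5.43 ± 0.612 CPM (2.04, SE 0.206) and the third small MAF, MAFK, from 35.3 ± 0.577 to 49.1 ± 2.02 CPM (0.48, SE 0.0776), and NFE2L3 did not pass (-0.23, adjusted p = 0.0543, edgeR). NFE2L3 was called lower after taking out GC and length trends (-0.26, adjusted p = 0.00755). Exons of TMEM184A lie opposite 18.2% of MAFK exon bases.

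Of 16 tested genes of the KEAP1-CUL3 ligase and other factors that promote or hinder NRF2 turnover 5 rose and 6 fell (median -0.16), shares close to those over all genes. SQSTM1, the autophagy receptor that can sequester KEAP1, rose from 970 ± 112 to 1617 ± 89.2 CPM (0.74, SE 0.0841), and BTRC, a subunit of another ligase for NRF2, rose (0.61). DPP3, which can compete with NRF2 for KEAP1, fell from 51.8 ± 6.75 to 29.3 ± 1.19 CPM (-0.82, SE 0.0971), and the ligase scaffold CUL3 fell from 84.0 ± 8.60 to 62.2 ± 0.804 CPM (-0.43, SE 0.0824). Scaled by library totals alone CUL3 did not pass (-0.17, adjusted p = 0.107) and the list had 6 higher and 1 lower. Taking out GC and length trends made CUL3 -0.73 and the list 3 higher and 6 lower. Exons of MRNIP lie opposite 20.7% of SQSTM1 exon bases.

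Genes that process or degrade the NFE2L1 protein rose in 6 of 8 cases and fell in 2 (median 0.29), and with GC and length trends taken out 5 were higher and 1 lower. The protease DDI2, which cuts NFE2L1 into its active form, rose from 22.7 ± 1.49 to 50.5 ± 3.70 CPM (1.153, SE 0.0899) and the deglycosylase NGLY1, which edits it, from 27.0 ± 2.53 to 50.3 ± 2.92 CPM (0.89, SE 0.0909). The ATPase VCP, which extracts it from the membrane, fell (-0.64, SE 0.0753), and BTRC, which is also on this list, rose as above. Around BACH1 and heme breakdown 1 of 6 genes rose and 3 fell (median -0.14), with BLVRB at 0.35, the biliverdin reductase BLVRA at -0.61 (SE 0.0799), FECH at -0.23 and the heme oxygenase HMOX1, a target that BACH1 represses, at -0.41 (SE 0.0819). HMOX1 did not pass when scaled by library totals alone (-0.14, adjusted p = 0.0913) or after taking out GC and length trends (-0.09, adjusted p = 0.153). FECH came to 0.037 on library totals (adjusted p = 0.642).

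Known NRF2 targets were more often lower than higher. Over 53 tested genes, the 4 described above included, 35 fell and 13 rose, with a median log2 fold change of -0.60. All genes tested had 32.2% lower, 32.4% higher and a median of 0.03. HMOX1, given above with the heme genes, is not counted among the 53. With library totals alone 32 fell and 18 rose (median -0.34, all genes 0.30), and with GC and length trends removed 33 fell and 14 rose (median -0.63). Those 33 include TRIM16L, which was left uncorrected because its GC content and length were not available.

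In the group of quinone, sulfiredoxin and thioredoxin genes 7 of 12 fell and 4 rose. With the targets described above left out, 5 of 8 fell and 2 rose. SESN2, a stress-induced sestrin that is also a target of ATF4 and p53, rose from 26.2 ± 3.46 to 86.3 ± 4.34 CPM (1.72, SE 0.0950), next to SRXN1 in size. The peroxiredoxin PRDX1 (-0.62), TRIM16 (-0.81) and TRIM16L (-0.90) fell. TRIM16 and TRIM16L are close paralogs, so the split of their counts is uncertain. PRDX1 has processed copies, and exons of MMACHC lie opposite 24.9% of its exon bases.

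Of 13 glutathione genes 5 rose and 8 fell (median -0.58). The list mixes genes of separate roles, so its counts do not describe glutathione synthesis alone. GCLC (1.17, SE 0.0708), GCLM (0.47, SE 0.0745) and GSR (0.18, SE 0.0748) were among those that rose. GSR passed narrowly (adjusted p = 0.0475, edgeR), with the groups overlapping. The cystine importer SLC7A11, at 146, 196 and 179 CPM in control and 598, 532 and 597 CPM in ARD1 libraries, rose by 1.73 (SE 0.0974), and CHAC1, which degrades glutathione and is better known as an ATF4 target, by 2.13 (SE 0.120). The transferase GSTA1 fell from 127 ± 1.48 to 11.3 ± 1.20 CPM (-3.49, SE 0.0902) and the peroxidase GPX2 from 733 ± 53.3 to 67.6 ± 8.29 CPM (-3.44, SE 0.0960). GSTA1 has close paralogs, which makes its counts uncertain. Like NFE2L2, SLC7A11 was lowest in control replicate 1.

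NADPH supply fell in 5 of 6 genes and rose in 1 (median -1.08). The pentose phosphate enzymes TKT (2162 ± 314 to 530 ± 21.2 CPM, -2.03, SE 0.0937), PGD (-1.19) and TALDO1 (-0.97) fell, and IDH1 rose (0.53). Among aldo-keto and carbonyl reductases and other detoxification genes 10 of 13 fell and 2 rose (median -1.03). AKR1B1 fell from 2379 ± 242 to 361 ± 34.4 CPM (-2.72, SE 0.0928), AKR1B10 from 2800 ± 62.6 to 719 ± 32.4 CPM (-1.96, SE 0.0695), with AKR1C2 at -1.66 and the prostaglandin reductase PTGR1 at -1.597. The aldo-keto reductases share long stretches of sequence, so reads may be split between them.

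Efflux transporters fell in 5 of 6 genes and rose in 0 (median -0.74), ABCC3 from 409 ± 9.68 to 142 ± 8.62 CPM (-1.52, SE 0.0702), with ABCG2 at -1.22, ABCC2 at -0.79 and ABCC1 at -0.69. Of 3 iron genes the ferritin heavy chain FTH1 rose (1738 ± 159 to 2542 ± 103 CPM, 0.55, SE 0.0772) and the others did not pass (median -0.04). FTH1 has processed copies, and exons of BEST1 lie opposite 62.4% of its exon bases. Of 5 tested coactivators and repressors of NRF2 2 rose, CREBBP (0.60) and EP300 (0.30), and 2 fell, RXRA (-1.003) and MED16 (-0.75), which is near the shares over all genes.

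Some list counts moved with the scaling, where the median of all genes itself went from 0.03 to 0.30 on library totals. On library totals the quinone and thioredoxin list had 5 higher and 5 lower of 12, the heme list 3 higher and 1 lower of 6, the NFE2L1 processing list 6 higher and 1 lower of 8, and the iron list 3 higher of 3. The medians of the turnover, heme and iron lists were then 0.10, 0.13 and 0.22, above 0 but below that of all genes. The NADPH, glutathione and reductase lists kept medians of -0.82, -0.31 and -0.77, and the efflux list had 4 lower and 1 higher of 6. Among the list genes outside the 10 that were named by rule, some stayed called on library totals with a log2 fold change that moved by over 1.5 times. These were VCP (-0.37), BLVRA (-0.35), PRDX1 (-0.36), ABCC1 (-0.42), ABCC2 (-0.52), MED16 (-0.48), BLVRB (0.62), MAFK (0.74) and EP300 (0.56). Besides CUL3 and HMOX1, given above, taking out GC and length trends moved 4 list genes named by rule by over 1.5 times. It gave DPP3 -0.45, MED16 -0.24, BLVRB 0.69 and MAFK 0.94, all still called.

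**Figure D4:**
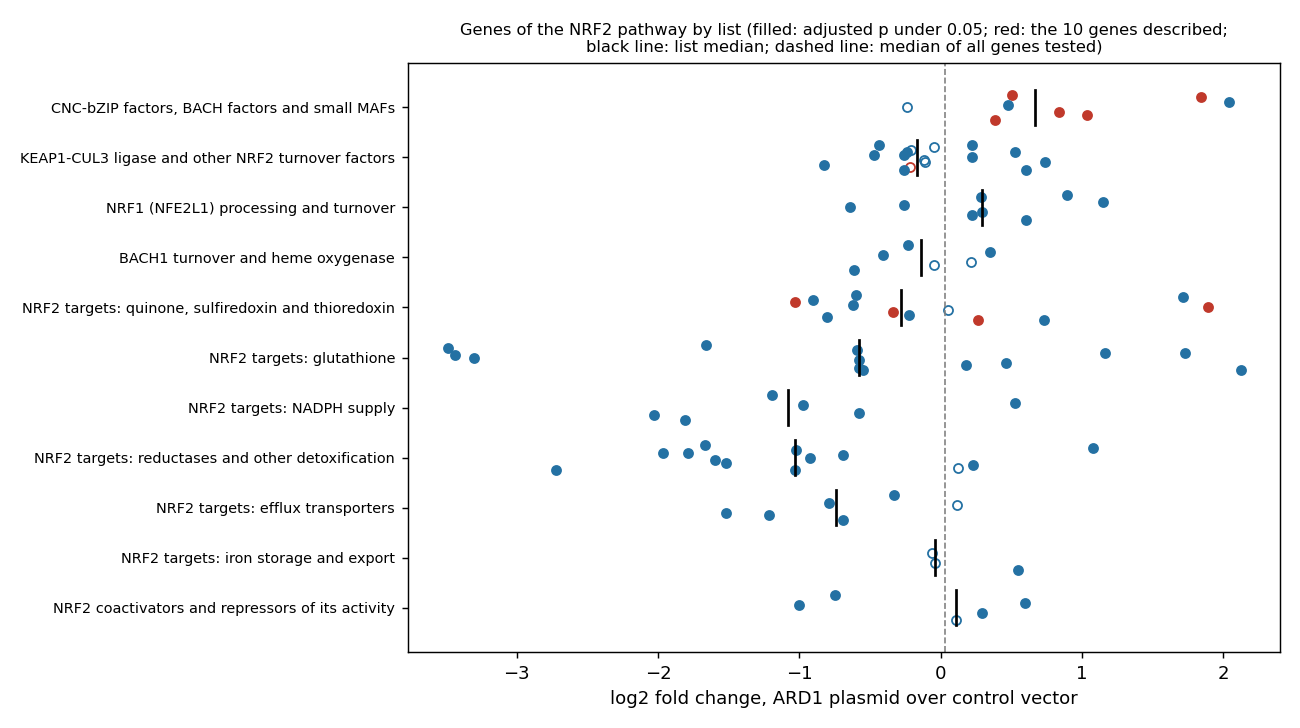
Log2 fold change, ARD1 plasmid over control vector, on the x axis for each tested gene of the 11 pathway lists on the y axis (filled points passed the test, red points are the 10 genes described, black lines are list medians, the dashed line is the median of all genes). The factor list has a median of 0.67 with the genes described included and 0.48 without them. The NADPH and reductase lists have medians of -1.08 and -1.03.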

How the data were processed

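Per the submitters' processing notes, the authors used cutadapt 4.6 and STAR 2.7.11b with GRCh38. How reads were assigned to genes, on which strand and with which annotation, is not given in the sources used here. Per the file headers, the deposited values are counts per Ensembl gene, and they are whole numbers whose totals differ between libraries. Every gene has at least 2 counts over the 6 libraries. Symbols came from a names table (25052 of 25071 matched), and coordinates, GC content and length from GENCODE 29 (23129 matched, and 96.3% of the genes tested).

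Genes were kept with filterByExpr and scaled with TMM, and the groups were compared with edgeR 4.0.16 (R 4.3.3), quasi-likelihood test, adjusted p under 0.05. This step was also run on simulated counts in which far fewer genes changed than were called here, up or down at random. That run cannot show how the step behaves under a shift as broad as the one in these libraries. At these depths 3 counts correspond to 0.112 to 0.142 CPM, and such floors cover counting error only. Fold changes are ARD1 over control. Standard errors come from the F statistic. GC and length trends were removed with loess offsets for the 96.3% of genes tested that had both values, and the others were left uncorrected. Ratios were compared by a two-sided exact permutation test.

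The 10 genes and the lists were chosen with earlier results of these data known. By rule, NAA10, the 10 genes, up to 4 changed genes of each list with the smallest p, and the 5 genes most correlated with NFE2L2 are named. One gene that the rule names is not reported here. NFE2L3, IDH1, GCLC, GCLM and GSR were named after their values were seen. Alternatives are given in the closing section.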

Additional observations from a re-analysis of the deposited data

How the results depend on the processing

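The alternatives were RLE and upper-quartile scaling, library totals alone, library sizes without NAA10, leaving out the 20 most abundant genes (TXNRD1 among them), DESeq2 1.42.0, limma-voom (limma 3.58.1), no filter, 1 CPM in 3 libraries, GC and length offsets, the replicate number as a block, both together, each library left out, and calls limited to absolute log2 fold changes of at least 1. Of the results recomputed, 337 were labelled the same, 10 moved, 5 reversed and 1 weakened, and for a count the first label allowed some movement. With library totals alone, list genes outside the 10 went from 25 higher and 46 lower to 34 and 36. Targets outside the 10 went from 11 and 33 to 16 and 31. Among the 10 genes, the 2 called lower became 1 with library totals alone, with GC and length offsets, and with offsets and block together. With offsets and block 8 were called higher because OSGIN1 passed in the direction opposite to its main call. Under that last limit the counts were 3 higher and 1 lower among the 10 genes, 3406 in place of 10223 genes called, 7 and 18 in place of 25 and 46 list genes outside the 10, and 5 and 17 in place of 11 and 33 targets outside the 10. KEAP1 reversed to 0.045 with library totals, 0.17 with offsets and 0.17 with offsets and block. OSGIN1 weakened to -0.071 with library totals and reversed to 0.14 with offsets and 0.14 with offsets and block (adjusted p = 0.0393, edgeR). The cause of these changes was not tested.

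With the replicate block 7 of the 10 genes were higher and 2 lower, 10293 genes were called, and NFE2L2 came to 1.86. Same-numbered libraries deviated from their group means with correlations of 0.02, -0.04 and 0.03, so the numbers were not taken as pairs, and control replicate 1 correlated best with ARD1 replicate 2. With TMM scaling the block changed no call among the 10 genes, and added to the offsets it changed that of OSGIN1. Leaving out each library gave 9271 to 10984 genes called and kept 7 higher and 2 lower. Over those fits the log2 fold change was 1.68 to 1.95 for NFE2L2, 0.95 to 1.10 for NFE2L1, -0.28 to -0.19 for KEAP1, 0.29 to 0.42 for BACH1, -1.09 to -0.99 for NQO1, 1.82 to 1.94 for SRXN1 and -0.41 to -0.25 for OSGIN1. KEAP1, with 278 to 300 counts a library, is the gene of the 10 that depth limits most.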
